A study of Rattus norvegicus with 26 samples.

Results

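The 26 libraries of the dentate gyrus data fell into 10 libraries with a high ribosomal share and 16 with a low ribosomal share, and those 10 are the subject here. The ribosomal share is the percentage of a library's summed normalized counts on genes whose symbol starts with Rpl or Rps and a digit. A library was chosen as high-share by this measured value, at a limit of 1.165%. Transcriptional profiles came from the dentate gyrus of 1 hemisphere of male F344 rats, an inbred strain, aged 6 months, with 1 library per rat and no engineered allele named in any group. Vehicle-gavaged rats (Veh, n = 10) belonged to a separate ongoing study as well. Dox rats (n = 8) were injected intraperitoneally with the chemotherapeutic doxorubicin, weekly over 4 weeks at 2 mg/kg. Dox + ABT rats (n = 8) were given, beside the same doxorubicin, the senolytic ABT-263 by gavage at 12 mg/kg in courses of 5 days. RNA was selected for poly(A) tails before library preparation.

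Ribosomal protein messages are short, very abundant and held back or released for translation together, through a tract of pyrimidines at their first bases (the terminal oligopyrimidine or TOP tract). Because they are short, their share also depends on how RNA is fragmented, selected and copied into a library. Transcripts of the mitochondrial DNA are a further abundant class, cut from long precursors and carrying short poly(A) tails. The dentate gyrus itself is made mainly of granule neurons, with interneurons, hilar mossy cells, glia and vessels among them.

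The share ran without a clear break from 0.625% in Veh 11 to 1.94% in Veh 2. It averaged 1.53 ± 0.209% (SD, n = 10) in the high-share libraries and 0.947 ± 0.127% (SD, n = 16) in the low-share libraries. Just above the limit lay Dox + ABT 4 at 1.20% and Dox 5 at 1.33%, and just below it lay Veh 6 at 1.14% and Dox + ABT 1 at 1.10%. The gap that the limit falls in, 0.0605 percentage points, was the 7th largest between neighbouring libraries. The 2 classes are therefore parts of 1 range, and the values below describe its upper part.

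**Figure D1:**
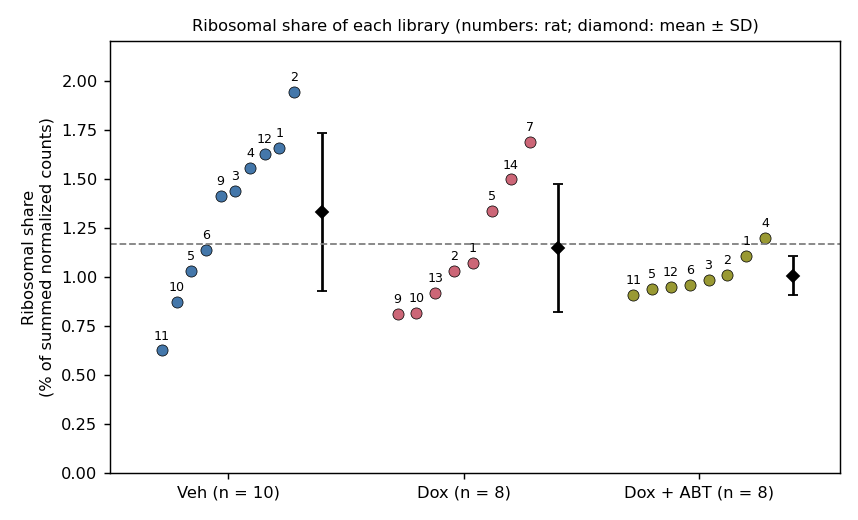
Ribosomal share of each library (vertical axis, % of summed normalized counts) by treatment (horizontal axis), with rat numbers above the points, the mean ± SD as diamonds and the 1.165% limit as a dashed line. Veh libraries spread from 0.625 to 1.94%, Dox libraries from 0.809 to 1.69% and Dox + ABT libraries from 0.907 to 1.20%.

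The treatments were unequally represented. The high-share class held 6 of 10 Veh libraries, 3 of 8 Dox libraries and 1 of 8 Dox + ABT libraries. Veh libraries averaged 1.33 ± 0.404% (SD), Dox libraries 1.14 ± 0.326% and Dox + ABT libraries 1.01 ± 0.0979%. The Dox + ABT libraries were the narrowest group, and all 8 lay inside the Veh range. Dox + ABT lay 0.323 percentage points below Veh (two-sided exact permutation test, p = 0.0428, Benjamini-Hochberg adjusted p = 0.128 over 3 comparisons). Dox lay 0.184 percentage points below Veh (exact permutation p = 0.308, adjusted p = 0.308) and 0.139 above Dox + ABT (exact permutation p = 0.274, adjusted p = 0.308). None of the 3 differences passed after adjustment.

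The classes also stood apart in estimated sequencing depth. Estimated reads per library ran from 16214345 to 24327755 in the high-share class and from 10166231 to 18788169 in the low-share class. The difference was 0.42 on the log2 scale with treatment as a covariate. The estimate divides the summed normalized counts by the value of 1 read, and that sum is also the denominator of the ribosomal share, so the difference is given as a description. Genes with a value above 0 numbered 17367.4 ± 146 and 17323.3 ± 151 (SD), so detection was nearly equal. RNA integrity was given only for all samples together, with numbers from 8.2 to 9.3. The part of depth or of RNA integrity in the differences below was not tested. Every library carried the granule cell marker Prox1, at 1679.7 normalized counts or more, and C1ql2, at 3980.4 or more.

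Across the 15595 genes tested, each averaging 5 normalized counts or more, the difference between classes was fitted in limma with treatment as a covariate. It is given on the log2(normalized count + 1) scale as the high-share minus the low-share level, with its standard error. Since the libraries were chosen from these same counts, no p-value is attached to it. A gene is counted as higher or lower when the difference reached 0.5 and was more than 2 standard errors. By that measure 1401 genes were higher, 8.98% of those tested, and 1358 were lower, 8.71%. With the libraries rescaled to equal totals without ribosomal and mitochondrial genes, the split was 1145 higher and 1735 lower. In 287 genes, 1.84%, every high-share library lay above every low-share library, and in 195, 1.25%, every one lay below. These shares are the background for the counts of list members and, as the rule used this contrast, nothing is read from a list's excess over them. The lists were chosen with earlier results of these data known. The median over all tested genes was 0.01.

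The ribosomal protein genes chose the libraries, and their values are given as a description. The rule takes 95 names. Of these 83 are cytosolic ribosomal protein genes and 12 are S6 kinases, Rps19bp1 and Rpl7l1, which share the prefix. Of the 81 ribosomal protein genes tested, 68 were higher in the high-share libraries and 1 was lower, with a median difference of 0.89. In 25 of them the classes did not overlap. Rpl13 and Rpl35a, the other 2 ribosomal protein genes of the rule, averaged below 5 normalized counts and were not tested.

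The share was thus carried by most members and not by a few. Rpl3, a large-subunit protein and the most abundant member, had 11547 to 20049 normalized counts in the high-share libraries (median 16317) against 6424 to 9466 in the low-share libraries (median 7519). No low-share library reached the lowest high-share library, and the log2 difference was 1.04 ± 0.09 (SE). Rps16, of the small subunit, had 7923 to 16638 normalized counts in the high-share libraries (median 11829) against 2180 to 7509 in the low-share libraries (median 4856), a log2 difference of 1.27 ± 0.15. Rpl27a had 1994 to 3694 normalized counts in the high-share libraries (median 2788) against 778 to 1509.9 in the low-share libraries (median 1065), and its difference was 1.32 ± 0.13. Rpl9 differed by 1.32 ± 0.14 and Rps7 by 1.19 ± 0.10, again without overlap. Rpl4, among the most abundant, was nearer to equal at 0.45 ± 0.06.

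The 12 names that are not ribosomal proteins were not higher. They took 0.0433 ± 0.00340% of high-share libraries and 0.0532 ± 0.00337% of low-share libraries. Rps6kb2, an S6 kinase acting downstream of mTOR, had 98.5 to 390.2 normalized counts in the high-share libraries (median 274) against 373 to 967 in the low-share libraries (median 569), a difference of -1.05 ± 0.18. Only Rps6kb2 and Rps6ka6 were counted as lower among them, and none was higher. One annotated Rpl21 copy was also lower, at -2.02 ± 0.88, with 0.191 to 185 and 0.904 to 689.8 normalized counts. Ribosomal protein genes have many near-identical copies in the rat genome, several rows carry the same symbol, and the values of single copies such as this one and Rps15al4 (1.92) are uncertain.

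Ribosomal and translation genes outside the rule are described next. Of the 8 further ribosomal protein entries, 6 were higher and none was lower, with a median of 0.71 that was 1.08 within Veh and 0.35 within Dox. Rpsa, a small-subunit protein also known as the laminin receptor, had 6086 to 12871 normalized counts in the high-share libraries (median 10548) against 3311 to 6238 in the low-share libraries (median 4672), a difference of 1.02 ± 0.11. Fau, whose product is cut into ribosomal protein S30, differed by 1.02 ± 0.11 and Rplp2, of the ribosomal stalk, by 1.05 ± 0.16, both without overlap between classes. Of the 16 translation genes with TOP messages, 11 were higher, none was lower, and in 6 the classes did not overlap. The median was 0.67.

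Among these 16, Tpt1, a small abundant TOP message, stood furthest apart. It had 6485 to 10765 normalized counts in the high-share libraries (median 8396) against 2897 to 5339 in the low-share libraries (median 3911), and its difference was 1.07 ± 0.10. Pabpc1, the cytoplasmic poly(A)-binding protein, had 3265 to 8086 normalized counts in the high-share libraries (median 5467) against 2369 to 3081 in the low-share libraries (median 2650.3), a difference of 0.92 ± 0.09. Eef1a1, which brings aminoacyl-tRNA to the ribosome, differed by 0.64 ± 0.10 and Eef2, the translocation factor and the most abundant of the list, by 0.35 ± 0.10. Hnrnpa1, at 0.04 ± 0.11, was close to 0.

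The bases around the annotated starts show a feature that many, but not all, of these genes have. Windows of 15 bases on each side of the RefSeq start (GRCr8) were read from the coding strand and are printed 5′ to 3′, with the longest run of at least 8 pyrimidines (C or T) in capitals. The first 5 are genes that were higher in the high-share libraries and carry such a run, the next 2 are higher ribosomal protein genes without one, and the last 2 are genes that were lower. They were chosen for these features after their values were seen.
Rpl27a, chr1:172974558-172974587, plus strand: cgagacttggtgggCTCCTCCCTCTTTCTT
Rpl9, chr14:43247575-43247604, plus strand: gacgaaggacgTTCTCTCTTTgccccatct
Rps7, chr6:50999431-50999460, minus strand: tcgcgagagctgtgTCTCTTTCTaagccgg
Fau, chr1:212779498-212779527, plus strand: ggacgtgcgcgcccccgCTCCTTCCTCTTT
Eef1b2, chr9:72074076-72074105, plus strand: tttccggccggtcccggCCCTTTTTCTCCC
Rpl3, chr7:113507976-113508005, minus strand: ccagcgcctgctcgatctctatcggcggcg
Rps16, chr1:92770643-92770672, plus strand: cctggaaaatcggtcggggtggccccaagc
Cacna1d, chr16:5527535-5527564, minus strand: cgggcggacgggcggcatggggggcgcgtc
Trrap, chr12:14941393-14941422, minus strand: cggacgccgcggctttaagccggggcggga

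A run of at least 8 pyrimidines lay in this window in 32 of the 51 ribosomal protein genes of the rule that could be matched by a unique symbol, or 62.7%. It lay in 8 of 12 matched TOP translation genes, 66.7%. Among all 10126 matched genes the share was 11.2%, and a run on the opposite strand was seen in 11.1% of all genes and 1.96% of the ribosomal protein genes. The nuclear oxidative phosphorylation and proteasome genes were near the level of all genes at 9.09% and 9.09%. Ribosomal protein genes without such a run differed by a median of 0.80 (n = 19) and those with one by 0.93 (n = 32). Annotated starts can miss the true first base, and a run of letters is a description and not a functional site.

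Mitochondrial transcripts took the largest share of the counts among the lists examined, the groups by gene span described below left aside. The 13 genes of the mitochondrial DNA took 12.96 ± 2.95% of the high-share libraries and 8.07 ± 1.89% of the low-share libraries (SD). The classes overlapped, from 8.59 to 17.1% against 6.05 to 13.04%, and 5 of 10 high-share libraries lay above all low-share libraries. All 13 genes had a positive difference and 11 were counted as higher, with a median of 1.10. This median was 1.03 within Veh and 1.10 within Dox. After quantile normalization it was 0.36.

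**Figure D2:**
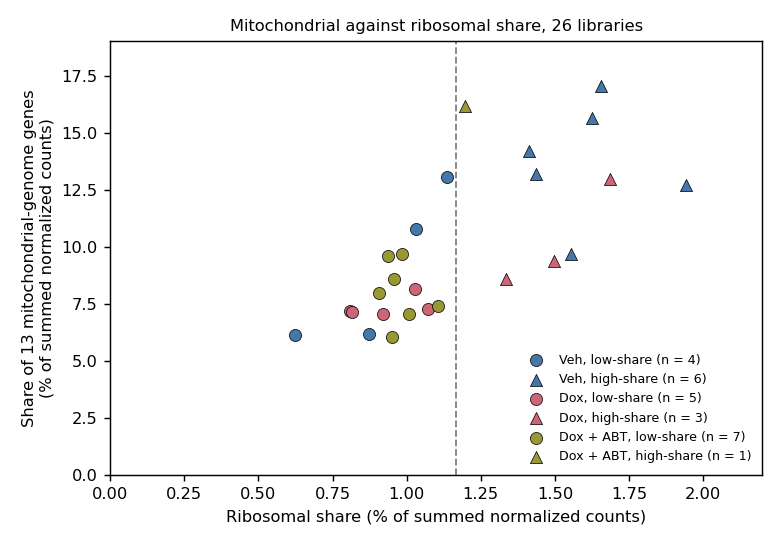
Share of the 13 mitochondrial-genome genes (vertical axis, %) against the ribosomal share (horizontal axis, %) in 26 libraries, coloured by treatment, with triangles for high-share libraries. Dox + ABT 4, at 16.2% mitochondrial, lies just beyond the limit, and Veh 2, with the highest ribosomal share, lies at 12.7%.

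Within the mitochondrial genome the differences were uneven. The 7 subunits of complex I differed by 1.10 (Mt-nd4) to 1.61 (Mt-nd6), and the 3 subunits of cytochrome oxidase by 0.43 (Mt-co3) to 0.83 (Mt-co2). After quantile normalization Mt-co3 turned to -0.38, with Mt-co1 at 0.24 and Mt-co2 at 0.18, and within Dox Mt-co1 and Mt-co3 were at 0.025 and 0.067. Mt-nd6, the one protein gene on the light strand, had 22209 to 58449 normalized counts in the high-share libraries (median 35665) against 8493 to 20678 in the low-share libraries (median 11918), with no overlap. Mt-co1, the most abundant transcript of all 13, had 263880 to 744590 normalized counts in the high-share libraries (median 500820) against 246430 to 570000 in the low-share libraries (median 332020), a difference of 0.48 ± 0.17. The ratio of summed complex I to summed cytochrome oxidase counts was 0.699 ± 0.193 in high-share libraries and 0.444 ± 0.0828 in low-share libraries (SD). It reached 0.950 in Dox 5, 0.943 in Veh 12 and 0.930 in Dox 7, against at most 0.565 in the low-share class, while Veh 3 at 0.377 was a high-share library with a low ratio. Mt-nd6 lies on the strand opposite to the other 12 genes, and the counting is not stated to use strand, so its reads and reads antisense to it cannot be told apart.

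Nuclear genes of the mitochondrion followed with smaller values. Of 82 nuclear oxidative phosphorylation genes, 31 were higher and none lower, with a median of 0.43. Cox6c, a cytochrome oxidase subunit, had 2569.9 to 3717 normalized counts in the high-share libraries (median 3189) against 997 to 2129 in the low-share libraries (median 1818), without overlap, a difference of 0.86 ± 0.10. Atp5f1b, the catalytic ATP synthase subunit and the most abundant, differed by 0.22 ± 0.08, Uqcr11, of complex III, by -0.35 ± 0.15, and Cox4i2, an oxygen-regulated subunit with few counts, by 1.15 ± 0.20. The list median was 0.63 within Veh and 0.22 within Dox. Of 72 mitochondrial ribosome genes 11 were higher and 1 was lower (median 0.24), from Mrpl1 at 0.997 ± 0.43 to Mrpl33 at -0.57 ± 0.25. Without Veh 10 the difference of Mrpl1 was 0.47, and without Dox 5 that of Mrpl33 was -0.31, under the size criterion. Mrpl42 had 472 to 708 normalized counts in the high-share libraries (median 591) against 186 to 418 in the low-share libraries (median 285), with no overlap.

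Of 39 proteasome subunits 16 were higher and none lower, with a median of 0.37. The classes did not overlap in 9 of them. Psmd1, a scaffold of the 19S regulatory particle, had 2449.5 to 6714 normalized counts in the high-share libraries (median 3955) against 1618 to 2179.5 in the low-share libraries (median 1829), a difference of 1.03 ± 0.11. Psmc1, an ATPase of its base, had 3493 to 5268 normalized counts in the high-share libraries (median 4501) against 2135 to 2896 in the low-share libraries (median 2413), a difference of 0.85 ± 0.07. Psmd2, the most abundant member, differed by 0.34 ± 0.05 and Psmd9, an assembly chaperone, by -0.06 ± 0.13. The value of Psmd1 in Dox 5 was 6714 normalized counts, with the next library at 4791.

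**Figure D3:**
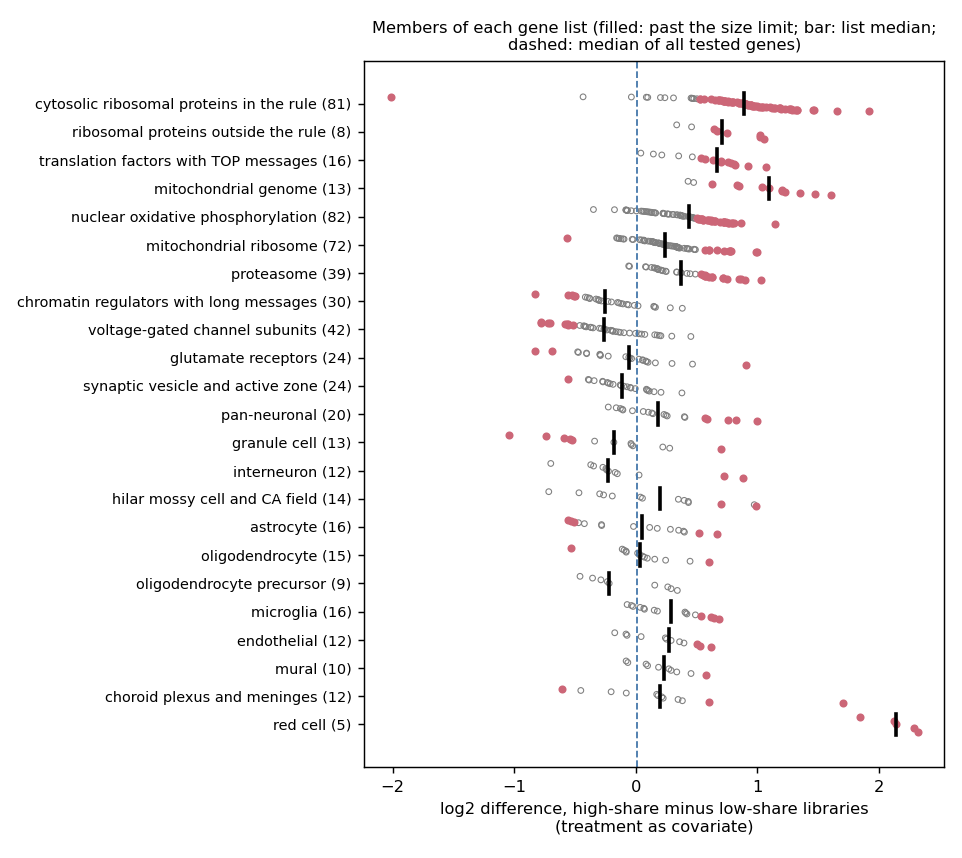
log2 difference between high-share and low-share libraries (horizontal axis) for each tested member of 23 gene lists (vertical axis, number tested in brackets). Filled points passed the size criterion, bars are list medians and the dashed line is the median of all tested genes at 0.01. Medians ran from -0.26 for voltage-gated channels to 2.14 for red cell genes.

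The median difference decreased with gene span. Genes were grouped into 5 equal groups by genomic span, the distance from start to end including introns, which was known for 13205 genes, and the ribosomal genes of the rule and the mitochondrial genes were kept out of the groups. From the shortest to the longest group the median difference ran 0.11, 0.05, 0.02, -0.06 and -0.09. In the shortest group 305 genes were higher and 185 lower (11.6 and 7.04%), and in the longest 116 and 232 (4.42 and 8.84%). The share of lower genes in the longest group was thus near that of all genes, and its share of higher genes was below it. Leaving out also the other ribosomal, TOP, oxidative phosphorylation, mitochondrial ribosome and proteasome genes moved the shortest group only to 0.10. The gradient was seen within Veh, from 0.22 to -0.20, and was flat within Dox, from -0.0012 to -0.02. Whether Veh and Dox differ in this gradient was not tested.

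**Figure D4:**
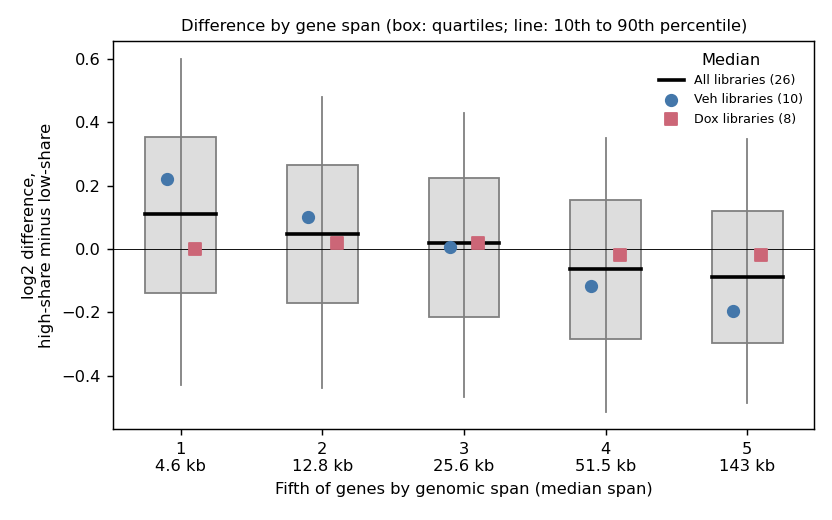
log2 difference between classes (vertical axis) in 5 groups of genes by genomic span (horizontal axis, with the median span). Boxes are quartiles over genes, lines the 10th to 90th percentiles, black bars the medians over 26 libraries, circles the medians within Veh and squares those within Dox. The medians step down from 0.11 to -0.09, while each box spans both signs.

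By mass, the longest group took 15.8 ± 1.79% of high-share libraries and 18.5 ± 0.819% of low-share libraries (SD). Dox 5 was the exception, with 19.8%, above every other high-share and every low-share library. The shortest group differed little as a share of all counts, at 14.6 ± 1.06% and 14.2 ± 0.930%. All counts include the mitochondrial transcripts, which took 12.96% of high-share and 8.07% of low-share libraries. A larger mitochondrial share lowers the share of every nuclear group, and this part was not taken out. Across genes, the correlation of difference with log10 span was weak (Pearson r = -0.171, n = 13205). Genes are not independent replicates, and genomic span is not transcript length.

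Chromatin regulators and voltage-gated ion channels had lower members and no higher ones. Of 30 chromatin regulators 5 were lower and none higher, with a median of -0.26 that was -0.32 within Veh and -0.11 within Dox. Trrap, the scaffold of histone acetyltransferase complexes, had 2581 to 4798 normalized counts in the high-share libraries (median 3642) against 5463 to 7805 in the low-share libraries (median 7096), and its difference of -0.83 ± 0.09 left no overlap. Srcap, a chromatin remodeller that deposits H2A.Z, had 1723 to 2526 normalized counts in the high-share libraries (median 1939) against 2694 to 3436 in the low-share libraries (median 3006), also without overlap, a difference of -0.52 ± 0.07. At the other end, Chd3, the most abundant, differed by 0.16 ± 0.08 and Chd8 by 0.38 ± 0.08. Of 42 voltage-gated channel genes 9 were lower and none higher, with a median of -0.26 that was -0.28 within Veh and -0.29 within Dox. Cacna1d, an L-type calcium channel, had 965 to 2264 normalized counts in the high-share libraries (median 1616) against 2132 to 3282 in the low-share libraries (median 2857), a difference of -0.78 ± 0.10. Scn8a, a sodium channel of the axon initial segment, had 2791 to 4302 normalized counts in the high-share libraries (median 3688) against 4218 to 6907 in the low-share libraries (median 5393), a difference of -0.58 ± 0.08. Zinc finger genes, 17 higher and 23 lower of 260, had a median of -0.03.

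Neuronal genes did not differ as a block. In these bulk samples fewer cells of a type and less RNA per cell cannot be told apart. Of 20 pan-neuronal genes 5 were higher and none lower (median 0.19), among them Elavl4, Celf4, Rbfox3 and Nrgn. Rbfox3, which encodes the neuronal nuclear antigen NeuN, had 3174 to 10248 normalized counts in the high-share libraries (median 4702) against 2069.5 to 3302 in the low-share libraries (median 2976), a difference of 0.76 ± 0.12. Nrgn, a postsynaptic calmodulin-binding protein with a short message, had 35733 to 64659 normalized counts in the high-share libraries (median 48843) against 23191 to 44378 in the low-share libraries (median 31688), a difference of 0.57 ± 0.13. Map2 and Camk2b, of the dendrite and the synapse, differed by -0.23 and -0.11. Of 24 synaptic vesicle and active zone genes 1, Unc13a, was lower at -0.56 ± 0.08 and none was higher. Sv2a, a vesicle glycoprotein, differed by 0.38 ± 0.05 without overlap, yet below the size criterion.

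Of 24 glutamate receptor genes 1 was higher, Grin2b, and 2 were lower, Grik2 and Grm6 (a metabotropic receptor, at -0.83 ± 0.20). Grin1, the obligatory NMDA receptor subunit and the most abundant, differed by -0.04 ± 0.08. Grik2, a kainate receptor subunit, had 445 to 772 normalized counts in the high-share libraries (median 546) against 729 to 1198 in the low-share libraries (median 934), a difference of -0.69 ± 0.09. Grin2b, an NMDA receptor subunit, had 1996 to 9879 normalized counts in the high-share libraries (median 3410.4) against 1316 to 2189.7 in the low-share libraries (median 1659), a difference of 0.90 ± 0.17. Its highest value belonged to Dox 5, with 4558 in the next library, and without Dox 5 the difference was 0.69. The same library carried the highest values of Gria2 (22167, next 13925), Ppp3ca (27782, next 15207), Snhg11 (10403, next 4942) and Sox9 (2686, next 1194). Among high-share libraries it was also the highest in Rbfox3 (10248, next 6385), Elavl4 (1902, next 1005) and Celf4 (7036, next 5017). These pan-neuronal genes differed by 0.76, 0.99 and 0.82, and without Dox 5 by 0.63, 0.78 and 0.73. Without Dox 5 the difference of Gria2 was -0.01 and that of Snhg11, the 1 measured long non-coding RNA of its list, was -0.31 in place of -0.11.

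Granule cell markers were more often lower. Of 13 tested, 5 were lower and 1 was higher, with a median of -0.18. Prox1, the transcription factor that marks granule cells, had 1679.7 to 2419.6 normalized counts in the high-share libraries (median 2084) against 2259 to 3587 in the low-share libraries (median 2880.2), a difference of -0.53 ± 0.09. Plk5, a polo-like kinase, had 353 to 956 normalized counts in the high-share libraries (median 592) against 733 to 1825 in the low-share libraries (median 1349.7), a difference of -1.04 ± 0.18. Pdzd2, Npnt and Rfx3 were the other lower genes, at -0.74, -0.59 and -0.54. Single omissions took some of these calls under the size criterion: Prox1 at -0.49 without Veh 5, Npnt at -0.44 without Veh 10 and Rfx3 at -0.46 without Veh 11. C1ql3, a secreted synaptic protein, was higher, with 1690 to 5424 normalized counts in the high-share libraries (median 2838) against 1399 to 2093 in the low-share libraries (median 1682) and a difference of 0.70 ± 0.12, while its relative C1ql2 differed by 0.28 ± 0.10. Markers of this 1 cell type thus had both signs.

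Interneuron genes had differences of both signs, 3 of 12 positive, with a median of -0.23. Their summed share was 0.0693 ± 0.00756% in high-share and 0.0861 ± 0.00688% in low-share libraries (SD), and 6 of 10 high-share libraries lay below every low-share library. The GABA synthesis enzymes Gad1 and Gad2 differed by -0.27 ± 0.06 and -0.25 ± 0.07, below the size criterion. Pvalb, the calcium buffer of fast-spiking cells, was higher, with 350.2 to 665 normalized counts in the high-share libraries (median 467) against 168 to 476 in the low-share libraries (median 259) and a difference of 0.88 ± 0.14. Cck, the cholecystokinin precursor, was also higher at 0.72 ± 0.16. None of the 12 was counted as lower. Npy, the neuropeptide Y precursor, had 2.63 to 378 normalized counts in the high-share libraries (median 165) against 92.3 to 298 in the low-share libraries (median 184), and its difference of -0.70 ± 0.52 was within 2 standard errors and -0.26 without Veh 12. Of 14 hilar mossy cell and CA field genes 2 were higher, Fibcd1 at 0.99 ± 0.27 and Mpped1 at 0.70 ± 0.30 (0.46 without Dox + ABT 4), and none was lower. Fibcd1 and Wfs1 mark CA1 neurons and varied widely in both classes, Fibcd1 from 958 to 4332 against 513 to 2099.6 normalized counts and Wfs1 from 1076 to 13686 against 884 to 10494. The part of neighbouring tissue in the dissection was not tested.

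Astrocyte genes were split, 2 higher and 3 lower of 16, with a median of 0.05. Gfap, the intermediate filament of astrocytes and their most abundant listed message, had 15018 to 26849 normalized counts in the high-share libraries (median 24173) against 9327 to 28990 in the low-share libraries (median 14815), a difference of 0.52 ± 0.10. Slc1a3, the glutamate transporter GLAST, had 7690.5 to 12848 normalized counts in the high-share libraries (median 8447) against 11647 to 15067 in the low-share libraries (median 13353), a difference of -0.56 ± 0.08. Slc4a4 and Fgfr3 were the other lower genes, at -0.53 and -0.51, and Sox9 was higher at 0.67 ± 0.18, or 0.46 without Dox 5. Single omissions also took other calls under the size criterion: Slc4a4 at -0.49 and Gfap at 0.46 without Veh 10, and Fgfr3 at -0.44 without Dox 7. Aqp4, the water channel of the endfeet, differed by -0.02 ± 0.11.

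Oligodendrocyte genes were centred near 0, with 1 higher, 1 lower and a median of 0.03 over 15. Mbp, the myelin basic protein, had 39085 to 74171 normalized counts in the high-share libraries (median 48814) against 25851 to 84848 in the low-share libraries (median 34756), a difference of 0.45 ± 0.15. Ermn was higher at 0.60 ± 0.21 and Opalin lower at -0.53 ± 0.14. None of 9 precursor genes passed in either direction. Of 16 microglial genes 4 were higher and none lower, with a median of 0.29, and their summed share was 0.0543% in high-share and 0.0511% in low-share libraries. Aif1, a short message that encodes Iba1, had 159.9 to 253 normalized counts in the high-share libraries (median 219) against 68.0 to 191 in the low-share libraries (median 143), a difference of 0.69 ± 0.11. Csf1r, the survival receptor of microglia and the most abundant of the list, differed by 0.49 ± 0.09, and the complement gene C1qa by -0.04 ± 0.14.

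Of 12 endothelial genes 3 were higher (median 0.27) and of 10 mural genes 1, a share near that of all genes (median 0.23), with none lower in either list. Without Dox 2 all 3 endothelial calls, Cldn5, Slco1a4 and Vwf, came under the size criterion at 0.49, 0.496 and 0.48. Cldn5, the tight junction protein of brain endothelium, had 564 to 1854 normalized counts in the high-share libraries (median 1231) against 376 to 1264 in the low-share libraries (median 747), a difference of 0.53 ± 0.20. Choroid plexus and meningeal genes gave 2 higher and 1 lower of 12, with a median of 0.20. Their summed share went the other way, at 0.0170 ± 0.00573% in high-share and 0.0289 ± 0.0209% in low-share libraries (SD). The defining marker Ttr, which encodes transthyretin, differed by -0.08 ± 0.55 with a range from 5.46 to 310.1 normalized counts over all libraries. Aqp1, a water channel of choroid plexus and also of red cells, differed by 1.70 ± 0.50, with its highest values in Dox 7 (230.4) and Dox 5 (161).

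Red cell genes had the highest median of the lists examined. All 5 tested were higher, from 1.84 (Alas2, the first enzyme of haem synthesis in red cells) to 2.32 (Hbb-bs, a beta globin), with a median of 2.14. Their summed share was 0.0720 to 0.147% in the 6 high-share Veh libraries and 0.0152 to 0.0398% in the 4 low-share Veh libraries, which did not overlap. Hbb had 5642 to 10896 normalized counts in the former and 899 to 3079.9 in the latter. In Dox the share ran from 0.0884 to 0.795% in high-share and from 0.0239 to 0.191% in low-share libraries, with the 2 highest values in Dox 7 and Dox 5, and Dox 1 and Dox 2 above the other low-share libraries. In Dox + ABT the only high-share library, at 0.0716%, lay within the range of the 7 low-share libraries, 0.0230 to 0.0791%. Without Dox 5 and Dox 7 the median difference was 1.66. Alpha and beta globin copies share reads, so single copies are uncertain. The part of residual blood in the other differences was not tested.

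The 8 largest differences in each direction were taken from genes averaging 50 normalized counts or more. On the higher side stood LOC103692716 (4.17, or 3.31 without Dox 5, where it reached 28365), Slc4a1 (2.59), which encodes the red cell anion exchanger, Hbb-bs, 3 U1 copies, a Y RNA copy and AABR07065531.15. On the lower side stood Zmiz2 at -2.60 ± 0.71, the Rpl21 copy, LOC100912282, LOC108348065, LOC100911319, Ccdc142 at -1.59 ± 0.43, Ybx2 at -1.56 ± 0.20 and Rmnd5b at -1.55 ± 0.47, or -0.91 without Dox 5. Of these 8, Ybx2, a germ-cell type Y-box RNA-binding protein, had classes that did not overlap, with 13.3 to 41.5 normalized counts in the high-share libraries (median 28.3) against 47.0 to 131 in the low-share libraries (median 90.4).

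Whether the class of a library bears on the treatment comparisons was tested next, since treatment labels were not used to choose the classes. Without a covariate, limma at an unadjusted p under 0.01, the threshold of the study, called 1222 genes in Dox + ABT against Veh, with 3.89% of tested genes higher and 3.95% lower. With class as a covariate it called 214 (0.641% higher and 0.731% lower), of which 167 were among the 1222. In Dox against Veh it called 448 (1.02% higher, 1.85% lower) and, with the covariate, 421 (1.07% higher, 1.63% lower), with 350 in both. In Dox against Dox + ABT it called 629 (2.32% higher, 1.71% lower) and 743 (2.73% higher, 2.04% lower), with 495 in both. Single omissions moved the counts without a covariate. The 1222 went to 695 without Dox + ABT 5 and to 2130 without Veh 11. The 448 went to 266 without Dox 1 and to 707 without Veh 11. After Benjamini-Hochberg adjustment few genes stayed under 0.05 in limma, 3, 0 and 0 without the covariate and 6, 0 and 4 with it, for Dox against Veh, Dox + ABT against Veh and Dox against Dox + ABT. As 7 of 8 Dox + ABT libraries are low-share, class and this treatment cannot be fully told apart.

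Some of the genes that marked the high-share class were among those called in Dox + ABT against Veh. Of the 81 ribosomal protein genes 1 was called higher and 12 lower without the covariate, and none passed with it. Rpl7a, the member with the smallest p, had a difference of -0.82 on the log2 scale (limma, p = 0.00143, adjusted p = 0.109), and of -0.49 with class as a covariate (limma, p = 0.0213, adjusted p = 0.671). Of 16 TOP genes 4 were lower, of 82 oxidative phosphorylation genes 6 were lower, of 39 proteasome genes 4 were lower and of 30 chromatin regulators 4 were higher, and with the covariate none of these passed. Other lists that were higher in the high-share class had few calls or none. Without the covariate 1 of 13 mitochondrial-genome genes and 2 of 72 mitochondrial ribosome genes were lower, and 0 of 5 red cell genes were called. The classes were drawn from the ribosomal counts, so the loss of ribosomal calls on adding class is in part built into the covariate. Zinc finger genes went from 17 higher and 10 lower to 3 higher and 3 lower of 260. Microglial calls went from 3 lower to none, with a list median of -0.24 without and -0.11 with the covariate. Astrocyte calls went from 2 lower to none, with the median moving only from -0.16 to -0.13, so that a lost call is not a lost difference.

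In Dox against Veh glial calls were similar in number in both fits. Of 16 microglial genes 6 were lower without and 4 with the covariate, of 15 oligodendrocyte genes 4 and 3, and of 16 astrocyte genes 3 and 3. Gfap was lower in Dox, with a log2 difference of -0.75 ± 0.15 (limma, p = 4.07e-05, adjusted p = 0.0547) and of -0.63 with class as a covariate (limma, p = 5.88e-06, adjusted p = 0.0201). Enpp2, which makes lysophosphatidic acid, differed by -0.55 and -0.54 in the 2 fits (limma, p = 0.000283 and 0.00043, adjusted p = 0.114 and 0.122). Npas4, a neuronal activity-induced transcription factor with few counts, differed by -1.16 and -1.28 (limma, p = 0.000828 and 0.0002, adjusted p = 0.157 and 0.0976). In Dox against Dox + ABT, oligodendrocyte genes went from 5 to 6 lower.

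Red cell genes went the opposite way, from 0 to 5 of 5 called higher at p under 0.01 in Dox against Veh when class was added. Hbb differed by 0.79 (limma, p = 0.194) and by 1.27 with the covariate (limma, p = 0.00498, adjusted p = 0.299). Alas2 differed by 1.21 and 1.63 (limma, p = 0.0372 and 0.000574, adjusted p = 0.464 and 0.134). None passed after adjustment, and the 4 Dox libraries named above hold the high values. Acer2, an alkaline ceramidase, had the steepest drop in p on adding class in Dox against Veh, among genes averaging 50 normalized counts or more. It differed by 1.35 in Dox against Veh without and by 1.59 with the covariate (limma, p = 0.00107 and 1.21e-05, adjusted p = 0.0315 with the covariate).

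**Figure D5:**
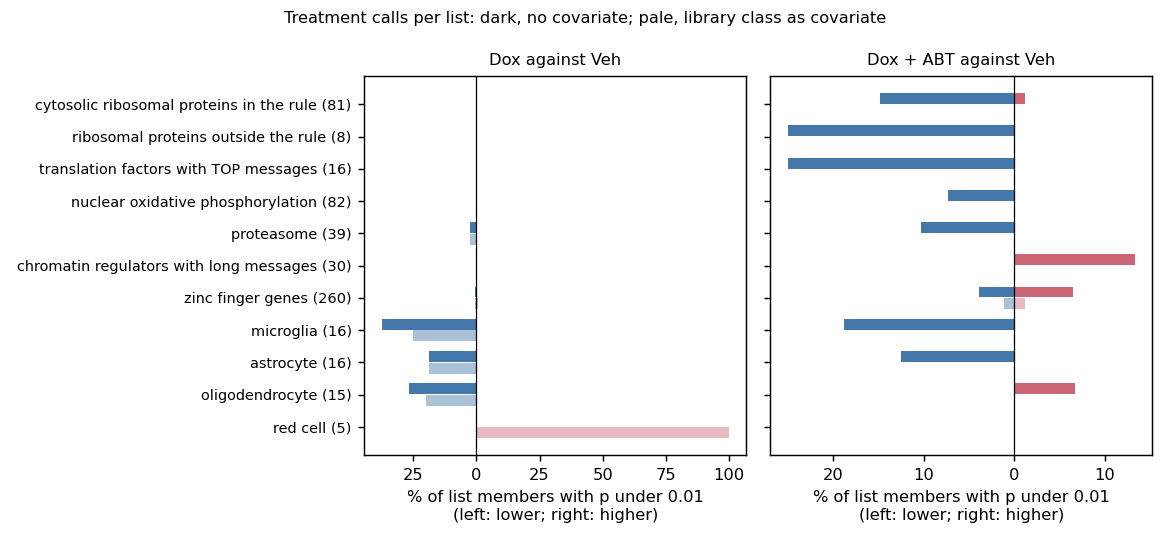
Percentage of list members with p under 0.01 (horizontal axis, lower to the left and higher to the right) in Dox against Veh and Dox + ABT against Veh, without a covariate (dark) and with library class as a covariate (pale), for 11 lists (vertical axis); the 2 panels have separate scales. In Dox + ABT against Veh the pale bars are empty except for zinc finger genes. In Dox against Veh the microglial and oligodendrocyte bars shorten, the astrocyte bar is unchanged and the red cell bar appears.

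The effect of Dox could also depend on class. In a model of the 18 Veh and Dox libraries, the interaction of Dox with class had p under 0.01 in 1117 genes, 7.16% of those tested, and 5 had an adjusted p under 0.05 in limma. Only 3 Dox libraries are high-share, and leaving out single libraries moved the count of 5 to between 0 and 956, the latter without Dox 14. The p-values do not account for the choice of the classes from these libraries. Fabp7, a fatty acid-binding protein of astrocytes and progenitors, had 562 to 747 normalized counts in high-share Dox, 259 to 351 in low-share Dox, 361 to 555 in high-share Veh and 399 to 524 in low-share Veh libraries. The Dox libraries did not overlap between classes, and the Veh libraries did. The log2 difference of Dox from Veh was 0.56 in the high-share and -0.60 in the low-share libraries (limma interaction 1.16 ± 0.20, p = 1.09e-05, adjusted p = 0.034). Ackr3, a scavenger receptor for the chemokine Cxcl12, went the other way, at -0.60 and 0.46. Ccdc47, of the endoplasmic reticulum membrane, stood at 0.44 and -0.31.

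Within a class, the ribosomal share was set beside 4 other measures of the library. The share chose the classes, which cuts its range, and all shares have a common denominator, so the correlations are descriptions with no test. The gene groups by span hold no ribosomal gene of the rule. Over the 16 low-share libraries the share of the shortest gene group gave Pearson r = 0.7499 and Spearman rho = 0.647, and r = 0.573 without the 2 libraries farthest from the median ribosomal share, Veh 11 and Veh 6. The mitochondrial share gave r = 0.557 and rho = 0.562, and r = 0.294 without the same libraries, so this relation rests on them. Over the 10 high-share libraries the mitochondrial share gave r = 0.06 and rho = 0.03. Without the 2 farthest of them, Veh 2 and Dox + ABT 4, it gave r = 0.541, so the value near 0 rests on these 2 libraries. The share of the shortest gene group gave r = 0.362 and rho = 0.236 over the 10, and r = 0.166 without the same libraries.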

How the data were processed

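The authors deposited normalized counts for 26 samples, a signal and not raw counts: per the labels and the study's methods, reads were aligned to rn6 with STAR 2.5.3a in Partek, counted, and scaled by the median ratio method, with DESeq2 used for their own tests. Ion Total RNA-Seq libraries came from 250 ng of RNA after 16 PCR cycles. The 24012 transcript rows were summed to 17910 genes here, and no column of another series was present. Whole reads could not be recovered: 74.3 to 77.5% of low values (under 20 reads) of genes with 1 row were whole multiples, within 0.01 reads, of the commonest lowest value, taken as 1 read, and 24.4 to 31.8% in rows of genes with several rows. Reads per library are estimates, the summed values divided by that lowest value. log2(value + 1) of 15595 genes with a mean of at least 5 was fitted in limma 3.58.1 (R 4.3.3) with treatment and class. Treatment differences of the ribosomal share were tested by exact permutation (Python 3.11.15). Gene span, starts and promoter windows came from RefSeq tables of another build (GRCr8), matched by symbol for 13205 of 15595 genes, or 84.7%. The members and lists were chosen with earlier results of these data known. Genes were named by rule: the 8 largest differences in each direction at a mean of at least 50, any member of lists of up to 16, otherwise the most abundant and the extreme members, and for treatment the smallest p; other named genes were chosen after their values were seen, and a few genes that the rule names are not reported here. Self-tests on simulated data were run first. No label states that rat numbers shared between groups pair animals, and they were not treated as pairs. Over 16 same-numbered pairs the correlation of deviations ran from -0.171 to 0.298, which cannot show that no pairing exists. Pseudocounts, filters, scalings, covariates and omissions of single libraries were tried as alternatives.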

Additional observations from a re-analysis of the deposited data

Results flagged for a closer look

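Of 32 groups of libraries examined, 4 held a library far from the rest of its group, and chance alone flags about 1 group in 20. Dox 7 had a mitochondrial share of 12.99%, with 9.39% in the next Dox library. Dox + ABT 4, the only high-share library of its group, had a mitochondrial share of 16.2%, with 9.68% in the next. Dox 5 gave 19.8% of its counts to the longest gene group, with 16.7% in the next high-share library. Veh 3 gave 0.0756% to small structural RNAs (U1, U2, U4, U5 and U12 RNA, 5S and 5.8S ribosomal RNA, 7SK, signal recognition particle RNA and Y RNA), which lack long poly(A) tails, with 0.0211% in the next Veh library.

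In 5 genes the interaction of Dox with library class had an adjusted p of 0.034 in limma. This count fell to 0 without any 1 of Veh 1, 2, 3, 4, 5 or 10 or of Dox 1, 2, 5, 7 or 9. It rose to as many as 956 without Dox 14. High-share minus low-share, the difference of Dox from Veh was 1.16 for Fabp7, 0.75 for Ccdc47, -1.06 for Ackr3, 1.26 for LOC100910754 and -3.25 for LOC100911156 on the log2 scale. LOC100911156 is a low gene, with a mean of 18.2 normalized counts. The classes were chosen on the same libraries and hold 3 high-share Dox libraries, and the cause of the difference was not tested.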

How the results depend on the processing

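Between high-share and low-share libraries, 1280 to 1580 genes were higher and 1200 to 1493 lower when single libraries were left out, and no other scaling, filter or covariate moved either count by more than 1.5 times, except that 2175 of 20203 transcript rows as deposited were lower. Rescaling to equal totals without ribosomal and mitochondrial genes gave 1145 higher and 1735 lower genes. List medians of at least 0.1 in size changed sign for Snhg11, the only long non-coding RNA measured (0.53 within Dox, 0.092 without the libraries nearest to the limit, 0.12 with the replicate block, 0.045 without Veh 9, and from -0.314 without Dox 5 to 0.057 without Dox + ABT 4 over single omissions), for mossy cell and CA field genes (-0.0049 within Dox), oligodendrocyte precursor genes (0.0081 within Veh, 0.042 with the replicate block), choroid plexus and meningeal genes (-0.077 with the replicate block) and the shortest gene group (-0.0012 within Dox). Medians nearer to 0 also changed sign, for astrocyte genes (-0.049 within Veh, -0.161 within Dox), oligodendrocyte genes (-0.030 and -0.064), zinc finger genes (0.077 within Dox), immediate early genes (0.040 within Veh), histones (0.110 with no filter) and the middle gene groups by span. Of the named genes past the size criterion, those that changed sign were Mt-cyb (-0.0091 after quantile normalization) and Hist2h2be (0.21 within Dox). The differences of Rps6ka6, Npnt, Rfx3, Prox1, Slc4a4, Fgfr3, Gfap, Opalin, Ermn and Cldn5 each came under 0.5 in size in at least 1 omission of a single library. The ribosomal share of Dox + ABT minus Veh lost its unadjusted call with rank sums (-4.73 ranks, exact permutation p = 0.0676) and ranged from -0.401 without Veh 11 to -0.255 without Veh 2. Without the 2 farthest libraries the relation with the mitochondrial share was 0.294 in place of 0.557 within low-share libraries. Within high-share libraries it was 0.541 in place of 0.06.

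Counts at p under 0.01 depended on the covariate. Dox against Veh gave 742 in low-share libraries alone, 765 with the replicate block, 235 with the mitochondrial share as covariate (chosen after seeing the data) and 266 (without Dox 1) to 707 (without Veh 11) with single libraries left out, and 271 without Dox 2. Dox + ABT against Veh gave 214 with class, 253 with the ribosomal share and 337 with the mitochondrial share as covariate, 172 in low-share libraries alone, 1180 with the replicate block and 695 (without Dox + ABT 5) to 2130 (without Veh 11) with single libraries left out, where the omission of Veh 1, 2, 9 or 10 or of Dox + ABT 3 or 6 also moved it by over 1.5 times, to 760, 788, 696, 1855, 742 and 696. Dox against Dox + ABT gave 1281 in low-share libraries alone, 403 with the replicate block, 1058 with the mitochondrial share and 419 (without Dox + ABT 5) to 787. The interaction count of 1117 ranged from 424 (without Dox 5) to 1797 (without Dox 14), and the 5 genes past adjustment from 0 to 956. Rat numbers share no cage, batch or litter in the labels, so the replicate block describes the numbers only. The causes were not tested. An alternative by protein length was not run, as no protein table was used here, and transcript length was replaced by genomic span. Normalized values without whole reads limit what can be said of genes near 5 counts.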

Other observations

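Of 14 heat shock genes 2 were higher in the high-share libraries and none lower, with a median of 0.21. Their summed share was nearly equal, at 0.3346% in high-share and 0.3350% in low-share libraries. The largest difference was that of Hspa8, at 0.79, and Hspb1 differed by 0.56. Hsp90aa1 and Dnajb1, described next, were under the size criterion at 0.48 and 0.46. Hsp90aa1, an inducible chaperone, had 10805 to 15437 normalized counts in the high-share libraries (median 13549) against 8018 to 11940 in the low-share libraries (median 10086), a difference of 0.48 ± 0.08, and Dnajb1, a co-chaperone of Hsp70, had 1044 to 1345 normalized counts in the high-share libraries (median 1120.5) against 719 to 956 in the low-share libraries (median 826), with no overlap. None of 18 immediate early genes passed in either direction (median -0.07). Arc, a synaptic activity gene, had 898 to 2081 normalized counts in the high-share libraries (median 1284) against 345 to 2293 in the low-share libraries (median 1069), and Fos differed by 0.34 ± 0.19. Of 7 replication-dependent histone genes, whose messages mostly end without a poly(A) tail, 1, Hist2h2be, was lower at -0.64 ± 0.22.

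Small structural RNAs, a list chosen after values were seen, were higher by gene count and mixed by share. Of 36 tested, 12 were higher and 4 lower, with a median of 0.97 against 0.01 over all genes. They took 0.00512 to 0.0756% of the high-share libraries (median 0.0172%) and 0.00316 to 0.153% of the low-share libraries (median 0.00958%), and the highest value, 0.153%, belonged to Dox + ABT 2, followed by 0.0930% in Dox + ABT 3 and 0.0855% in Dox + ABT 1, all low-share. Within Veh the mean was 0.0245% in high-share and 0.00915% in low-share libraries, and within Dox 0.0342% and 0.00647%. Copies of these genes share reads, and single copies differed by up to 2.87 (a U1 copy) and down to -1.60 (a 7SK copy).

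Ribosomal protein genes ranked libraries more gradually than the limit does. Of the 81 tested, the number above their own median over all libraries was 58 in Dox 5 and 70 or more in the other 9 high-share libraries, and 57 in Veh 6, 53 in Dox + ABT 1 and 35 or fewer in the other 14 low-share libraries. Abundant genes more often had classes that did not overlap: in the most abundant of 5 equal groups of genes 156 lay above and 68 below, and in the least abundant 2 and 4, each of 3119 genes.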
